A study of Mus musculus with 40 samples.

Results

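Mitochondrial fatty acid oxidation is described here through 10 genes, Cpt1a, Cpt1b, Cpt2, Acadm, Acadl, Acadvl, Hadha, Hadhb, Acaa2 and Acot2, in mouse brown adipose tissue. They were chosen by name, as the rows of the count table whose Ensembl identifiers carry these symbols, and all 10 of the 10 were found among 52636 genes. All 10 also passed the filter on low counts, which 17079 genes passed. The tissue came from male C57BL/6 mice, given as 10 to 12 weeks old in the series text and as 10 to 14 weeks in the treatment protocol. Every mouse received one intraperitoneal dose of antibody. Control mice (labelled RW) received 40 mg/kg of an anti-ragweed isotype control. The others (labelled Jag) received anti-Jag1 and anti-Jag2, which block 2 ligands of the Notch receptors, at 20 mg/kg each. Both kinds of mice were sampled at 15 h, 5 d and 7 d. Further mice of both kinds were sampled at 7 d after daily T4 at 1 ug per g body weight with T3 at 0.05 ug per g, started on day 2 of the antibody treatment. That gives 8 groups of 5 mice, 40 libraries in all. The antibodies and the hormone were given to the whole animal, so neither acted on brown fat alone. The series title concerns Notch signalling in the thyroid.

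Long-chain fatty acids enter mitochondria by a carnitine shuttle. Carnitine palmitoyltransferase 1 on the outer membrane makes the acylcarnitine and is inhibited by malonyl-CoA, and carnitine palmitoyltransferase 2 on the inner membrane turns it back into acyl-CoA. Cpt1a encodes the form typical of liver and Cpt1b the form typical of muscle, which is also the main form of brown fat. The acyl-CoA dehydrogenases Acadvl, Acadl and Acadm take very long, long and medium chains and start each round of beta-oxidation. Hadha and Hadhb encode the alpha and beta subunits of the mitochondrial trifunctional protein, which carries out the remaining steps on long chains. Acaa2 is the thiolase for shorter chains, and Acot2 is a mitochondrial thioesterase that splits acyl-CoA into fatty acid and CoA. In brown fat this pathway fuels heat production.

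On GRCm38, in the GENCODE M21 annotation, Cpt1a lies on chromosome 19 (3322334 to 3385733), Cpt1b on chromosome 15 (89416405 to 89425863) and Cpt2 on chromosome 4 (107903981 to 107923610). The dehydrogenases Acadm, Acadl and Acadvl lie on chromosome 3 (153922357 to 153944632), chromosome 1 (66830839 to 66863277) and chromosome 11 (70010183 to 70015411). Hadha (30118304 to 30155162) and Hadhb (30155248 to 30184593) are neighbours on chromosome 5. Acot2 lies on chromosome 12 (83987861 to 83993873). Counts were made per gene, so no value refers to a single exon.

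As 9 of these genes moved together and Cpt1a moved against them, the bases before the start sites were searched for the hexamer that nuclear receptors bind. RefSeq promoter entries on GRCm38.p6 were matched for 8 of the 10 genes. The hexamer AGGTCA was found on either strand in 3 of these 8 windows of 250 upstream and 50 downstream bases, those of Cpt1a, Acadm and Acadvl. It occurs in 16.255% of all 32851 windows of that length. None of the 8 windows held 2 copies of AGGTCA in the same direction spaced by any 1 base, known as the PPAR type, which 0.04% of all windows hold. None held 2 such copies spaced by any 4 bases, known as the thyroid hormone receptor type (0.015% of all windows), or the extended half-site TCAAGGTCA, known as the estrogen-related receptor type (0.423%). All were searched on both strands, and they contain the hexamer, so these searches overlap. The upstream 250 bases of the 3 windows are shown because Cpt1a and Acadm changed in opposite directions under the hormone while both carry the hexamer. They lie at chr19:3323051-3323300 on the plus strand, at chr3:153944644-153944893 on the minus strand and at chr11:70015429-70015678 on the minus strand. They run 5′ to 3′ on the gene's strand, and capitals mark the hexamer or its complement.
Cpt1a: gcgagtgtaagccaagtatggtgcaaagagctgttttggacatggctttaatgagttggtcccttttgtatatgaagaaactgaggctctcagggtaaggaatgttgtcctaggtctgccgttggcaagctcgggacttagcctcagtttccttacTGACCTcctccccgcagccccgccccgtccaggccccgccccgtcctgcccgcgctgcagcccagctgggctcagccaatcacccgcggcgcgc
Acadm: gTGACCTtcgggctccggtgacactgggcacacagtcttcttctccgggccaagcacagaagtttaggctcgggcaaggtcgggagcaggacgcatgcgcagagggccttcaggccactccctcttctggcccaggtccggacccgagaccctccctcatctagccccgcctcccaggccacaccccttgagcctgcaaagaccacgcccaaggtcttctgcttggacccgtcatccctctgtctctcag
Acadvl: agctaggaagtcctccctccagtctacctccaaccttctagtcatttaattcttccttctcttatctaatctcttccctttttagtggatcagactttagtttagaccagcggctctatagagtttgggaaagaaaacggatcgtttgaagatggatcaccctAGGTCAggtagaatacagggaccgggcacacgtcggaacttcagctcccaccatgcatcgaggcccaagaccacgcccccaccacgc
The hexamer begins 94 bases before the RefSeq start site in Cpt1a, 249 bases before it in Acadm and 87 bases before it in Acadvl. RefSeq start sites can differ from the GENCODE gene ends given above. In Cpt1a the RefSeq start is at 3323301, so the bases shown lie inside the GENCODE gene, which begins at 3322334. These matches are a description of the sequence and no measure of binding. Hadha and Hadhb are transcribed away from each other, with RefSeq start sites 273 bases apart, so their windows share 228 bases.

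The libraries held 12217623 to 36511893 counts, and the members had a median of 346.5 counts (Cpt1a) to 58293 counts (Acadl) per library. No pair of libraries in a group agreed within sampling noise (lowest chi-square per degree of freedom 19.4). Skeletal muscle transcripts differed between antibodies at 5 d, and 2 control mice at 15 h, numbers 2 and 3, stood apart. Their myeloid scores, the mean log2 CPM of 10 genes of neutrophils, monocytes and macrophages, were 8.61 and 6.67, against 2.55 to 4.25 in the other 3 mice of that group. The brown adipocyte markers, 10 of 10 detected, summed to 2924 to 47243 CPM per mouse, and none was at 0 in a group. Batches of extraction or sequencing are not given in the sources used here. The labels number the samples of a group and do not state that each is a separate animal, so the samples are called mice here and p-values measure the spread between them.

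Counting limits the reading of a few members, because 50-base reads from near-identical or overlapping transcripts may be split between genes. For Hadhb, 61.5% of the 50-base windows of the main transcript also occur in the pseudogene Gm13910, which held a median of 66.3% (48.6 to 72.1%) of the counts of the pair. For Acot2, 24.5% occur in Acot1, the neighbouring cytosolic thioesterase. For Cpt1b, 93.0% are shared with Gm44502, a transcript that overlaps it and is not among the genes of the count table. For Acadvl, 24.0% are shared with the overlapping gene Dvl2. Shared windows made up 4.1% for Acadm and 0.655% for Hadha, and there were none for Cpt1a, Cpt2, Acadl and Acaa2. Values of Hadhb, Acot2 and Acadvl are uncertain to this extent. For Cpt1b no counts were given to Gm44502, and whether shared reads were left out is not known.

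Levels per kilobase of the principal transcript over the 40 mice placed Acaa2 first at 10.83 (log2 CPM per kb), followed by Acadl at 10.49, Acadm at 9.36, Acadvl at 9.24, Hadha at 8.76, Cpt1b at 8.25, Cpt2 at 7.83 and Hadhb at 6.47. Acot2 at 3.31 and Cpt1a at 2.10 were far below. The order depends on the length used: per kilobase of all annotated exons of a gene, Acadvl (8.93) was above Acadm (8.43), and Cpt1b (8.03) and Cpt2 (7.82) were above Hadha (7.64). Acaa2 and the 3 dehydrogenases, which act in the matrix or on the inner membrane, were the top 4 by either length, and the liver form of the transferase was the lowest member. In every mouse Cpt1b exceeded Cpt1a per kilobase, the log2 ratio running from 2.07 (control mouse 2 at 15 h) to 7.88.

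**Figure D1:**
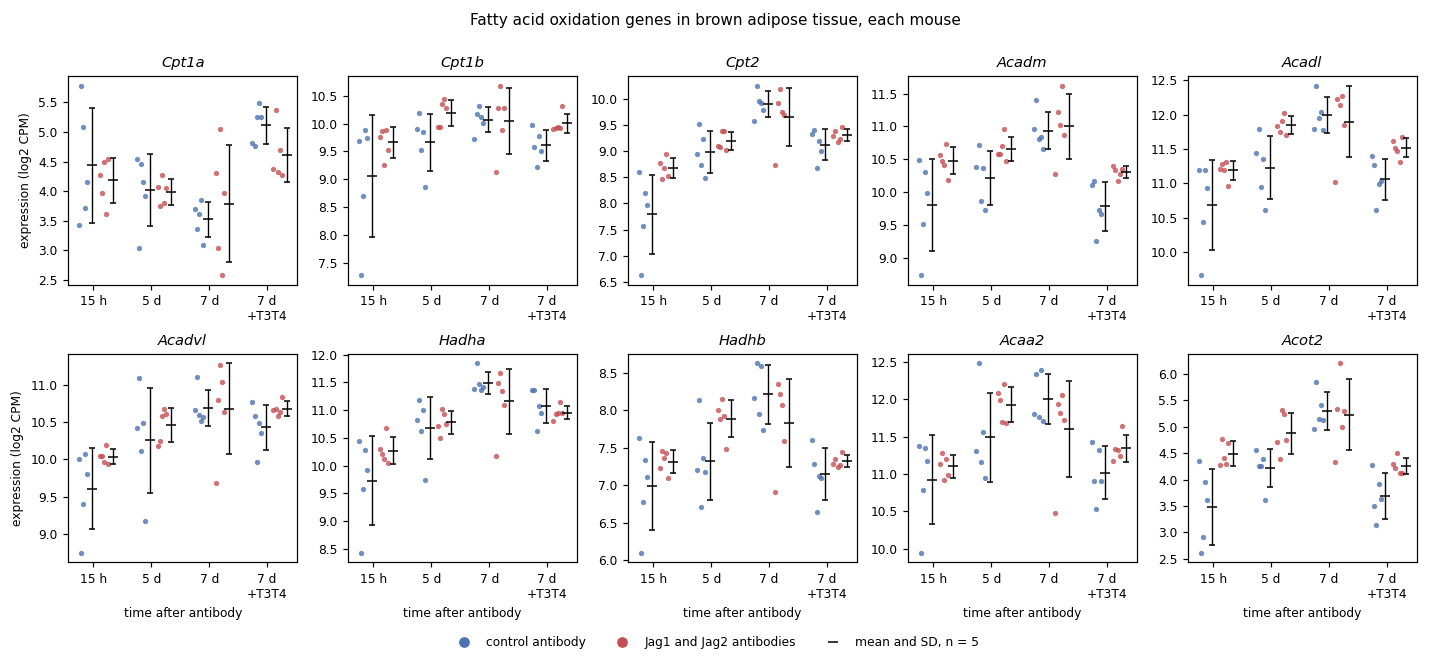
Expression of the 10 genes in each mouse, as log2 CPM (vertical axis, scaled per gene) by time after antibody and hormone (horizontal axis). Points are mice, blue for the control antibody and red for the Jag antibodies, and bars show mean and SD (n = 5). The control groups at 7 d and 15 h lie apart for 8 genes, and the hormone group of control mice is high in Cpt1a and low in Acot2.

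The question whether blocking Jag1 and Jag2 changes the oxidation genes was addressed at the 3 times and in the hormone groups. None of the 10 members was called in any of these 4 comparisons. The test was edgeR's quasi-likelihood test with Benjamini-Hochberg adjustment over the 17079 genes, at an adjusted p of 0.05. The share of all genes called was 1.14% at 15 h, 8.02% at 5 d and 2.5% at 7 d, and 1.14% between the hormone groups. At an unadjusted p of 0.05, 3 members passed at 15 h (12% of all genes), 3 at 5 d (22.9%), 0 at 7 d (20.5%) and 0 with hormone (11.9%). DESeq2 called 2 members at 15 h and 0 at the other times.

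Those 2 were Acot2 and Cpt2. Cpt2 in control mice 1 to 5 at 15 h was at 8.60, 6.63, 7.56, 8.20 and 7.97 log2 CPM, and in Jag antibody mice 6 to 10 it was at 8.78, 8.46, 8.67, 8.95 and 8.53. The groups overlapped only through control mouse 1. The log2 fold change was 0.76 (SE 0.24, adjusted p = 0.106 by edgeR and 0.0424 by DESeq2). Acot2 in control mice was at 4.35, 2.61, 2.91, 3.95 and 3.62, and in Jag antibody mice at 4.27, 4.77, 4.41, 4.29 and 4.70. Here too control mouse 1 alone reached into the other group, and mice 2 and 3 were the lowest. The log2 fold change was 0.88 (SE 0.28, adjusted p = 0.102 by edgeR and 0.0486 by DESeq2). Without control mouse 1 both genes passed the edgeR test, and without mice 2 and 3 the log2 fold changes were 0.41 for Cpt2 and 0.51 for Acot2, each with an adjusted p of 1. The 10 myeloid markers summed to 299 to 6275 CPM in control and 289 to 566 CPM in Jag antibody mice at 15 h, with none at 0, 2 of 10 being lower under the Jag antibodies.

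At 15 h 9 of 10 members had a positive log2 fold change, with a median of 0.39 against -0.04 over all tested genes. Without control mice 2 and 3, 7 of 10 were positive and the median was 0.08. At 5 d 9 of 10 were positive, with a median of 0.38 against 0.04. The largest at 5 d was Acot2, at 4.57, 4.26, 4.26, 4.39 and 3.61 log2 CPM in control and 4.71, 4.38, 5.32, 5.24 and 4.74 in Jag antibody mice, which overlapped. Its log2 fold change was 0.67 (SE 0.28, adjusted p = 0.134). The 8 muscle markers summed to 1018 to 175926 CPM in control and 0.878 to 43.9 CPM in Jag antibody mice at 5 d, with 6 of 8 lower and none at 0. With the muscle score as a covariate the log2 fold change of Acot2 was 0.40 (adjusted p = 0.735). Under that covariate 6 of 10 members were positive at 5 d, with a median of 0.18. The mitochondrial share of counts was 4.14 percentage points higher under the Jag antibodies at 5 d (exact permutation p = 0.00794, adjusted 0.0317, with no overlap). At 7 d the signs were even, 5 up and 5 down, the median was -0.01, and the intervals of the members ran from -0.87 (Acaa2) to 1.25 (Cpt1a). Intervals of that width do not show equal levels.

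At 7 d with hormone 8 of 10 members were positive with a median of 0.26, and Acadm was the 1 member of 10 whose groups did not overlap (6.59% of all genes did not). Acadm, the medium-chain dehydrogenase, was at 10.11, 10.17, 9.25, 9.72 and 9.67 log2 CPM in control and 10.39, 10.33, 10.17, 10.28 and 10.36 in Jag antibody mice. The highest control mouse and the lowest Jag antibody mouse lay side by side. Its log2 fold change was 0.49 (SE 0.24, adjusted p = 0.429), which did not pass.

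**Figure D2:**
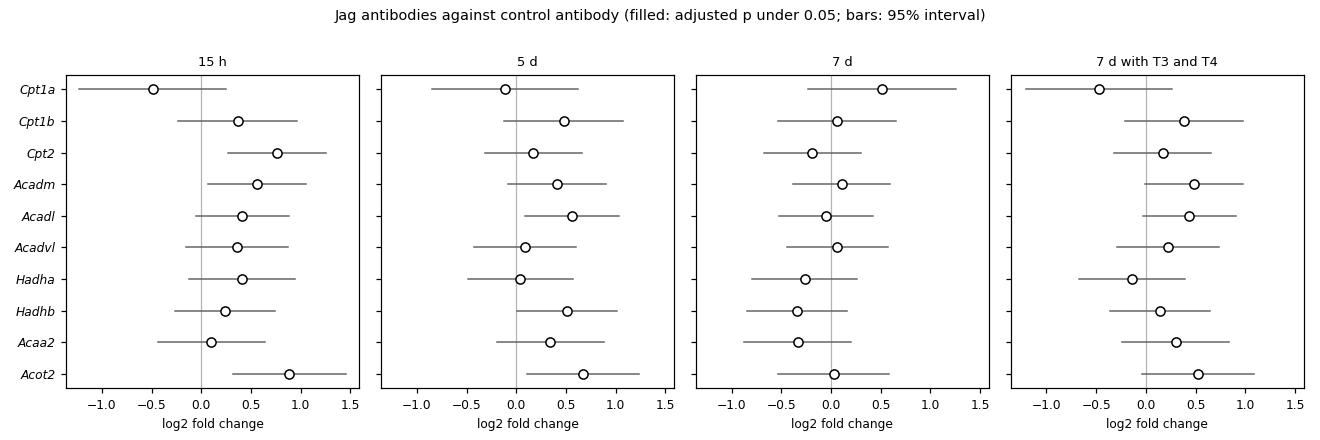
Log2 fold change of each gene, Jag antibodies against control antibody, in 4 panels, the last of them with T3 and T4. Circles are edgeR estimates with 95% intervals, and filled circles would mark an adjusted p under 0.05. No circle is filled, and the largest estimate is that of Acot2 at 15 h (0.88).

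Thyroid hormone changed the oxidation genes of control mice. With hormone at 7 d, 7 of 10 members passed the test against 43.2% of all genes: 1 was higher (20.3% of all genes) and 6 were lower (22.9%). The groups did not overlap for these 7, against 29.8% of all genes. The median of the members was -0.85 against 0.04 over all genes. This comparison and the time comparison in control mice share the control mice at 7 d without hormone. In bulk tissue, fewer cells of a type and less RNA per cell cannot be told apart.

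Cpt1a, the liver form of the transferase, rose. Control mice 1 to 5 at 7 d were at 3.70, 3.36, 3.62, 3.85 and 3.08 log2 CPM, and with hormone control mice were at 4.81, 4.77, 5.25, 5.49 and 5.25. All 5 hormone mice were above all 5 others. The level was 3.05-fold higher, or 1.61 on the log2 scale (SE 0.37, adjusted p = 0.000883). It passed under all 11 alternatives tried, at log2 fold changes of 0.40 to 1.66, and without any one mouse, at 1.51 to 1.70.

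Cpt1b, the muscle form, was at 9.73, 10.17, 10.32, 10.12 and 10.01 log2 CPM without and 9.97, 9.57, 9.22, 9.77 and 9.51 with hormone. The groups overlapped and the log2 fold change of -0.45 (SE 0.29, adjusted p = 0.215) did not pass. Cpt2, which acts after both, fell from 9.57, 10.25, 9.96, 9.92 and 9.78 to 9.33, 9.41, 8.67, 9.19 and 9.0. The groups did not overlap, and Cpt2 changed by -0.77 on the log2 scale (SE 0.24, adjusted p = 0.0103). The call of Cpt2 was lost with length and GC offsets (-0.29, adjusted p = 0.369) and with the myeloid covariate (-0.33, adjusted p = 0.184).

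The log2 ratio of Cpt1b to Cpt1a joins these changes. In control mice 1 to 5 it was 6.61, 7.38, 7.27, 6.85 and 7.51 per kilobase of the principal transcript without hormone and 5.73, 5.38, 4.54, 4.85 and 4.83 with it. Every hormone mouse was below every other mouse. The difference was -2.06 (exact two-sided permutation p = 0.00794, the smallest that 5 against 5 mice allow, adjusted 0.0476 over 6 comparisons). In Jag antibody mice 6 to 10 the ratio was 5.39, 7.82, 6.21, 7.88 and 6.89 without and 6.11, 5.13, 6.19, 5.79 and 6.61 with hormone, and the groups overlapped. That difference of -0.87 was within the spread between mice (exact permutation p = 0.159, adjusted 0.317). Between antibodies with hormone the ratio differed by 0.90 (exact permutation p = 0.0317, adjusted 0.0952), which did not pass the adjustment.

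**Figure D3:**
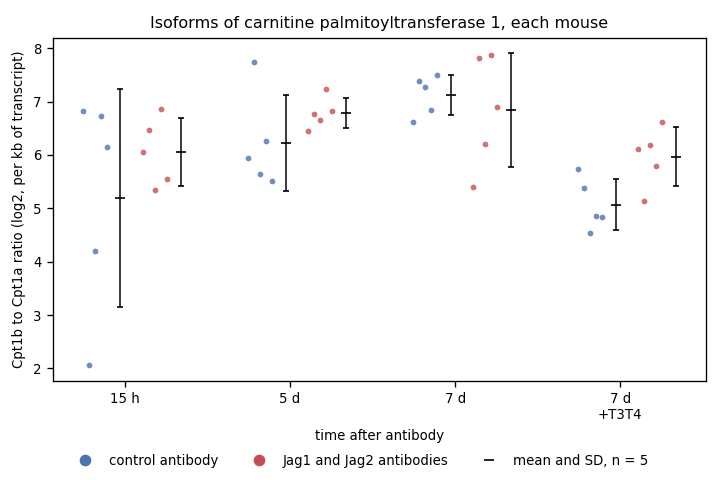
Log2 ratio of Cpt1b to Cpt1a per kilobase of the principal transcript (vertical axis) in each mouse by time and hormone (horizontal axis), blue for the control antibody and red for the Jag antibodies, with mean and SD (n = 5). The control mice given hormone, at 4.54 to 5.73, lie below the control mice without it, at 6.61 to 7.51, and control mouse 2 at 15 h is the lowest of all at 2.07.

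Of the 3 acyl-CoA dehydrogenases, 2 fell with hormone in control mice. Acadm went from 10.96, 11.41, 10.81, 10.84 and 10.66 log2 CPM to 10.11, 10.17, 9.25, 9.72 and 9.67, with no overlap. The change of -1.14 on the log2 scale (SE 0.24, adjusted p = 0.000419) passed under every alternative tried. Acadl, the long-chain enzyme, went from 11.80, 12.42, 11.95, 12.04 and 11.78 to 11.39, 11.27, 10.61, 10.99 and 11.04. The highest hormone mouse stayed below the lowest mouse without hormone, and the log2 fold change was -0.93 (SE 0.23, adjusted p = 0.00176). With length and GC offsets Acadl was at -0.17 (adjusted p = 0.595). Acadvl, the very long-chain enzyme, ranged from 10.52 to 11.11 without and 9.96 to 10.77 with hormone, and its log2 fold change of -0.25 (SE 0.25, adjusted p = 0.437) did not pass.

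The 2 subunits of the trifunctional protein gave different calls. Hadha was at 11.39, 11.85, 11.46, 11.35 and 11.42 log2 CPM without and 11.37, 11.35, 10.63, 11.08 and 10.95 with hormone, overlapping through mouse 1 of the hormone group alone. The change of -0.40 (SE 0.26, adjusted p = 0.215) did not pass, and with length and GC offsets it was -0.92 (adjusted p = 0.00626). These offsets use the length of all annotated exons. That is 8730 bases for Hadha and 6595 for Hadhb, against 4017 and 2048 in the principal transcripts. Hadhb went from 8.17, 8.63, 7.95, 8.60 and 7.74 to 7.61, 7.28, 6.64, 7.13 and 7.09, without overlap, or by -1.07 on the log2 scale (SE 0.25, adjusted p = 0.000959). When the counts of Hadhb and its pseudogene Gm13910 were summed, the log2 fold change was -0.50 (adjusted p = 0.0988) and the call was lost. Gm13910 alone was at -0.17 (adjusted p = 0.628).

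Acaa2, the thiolase, fell from 11.81, 12.34, 11.76, 12.40 and 11.71 log2 CPM to 11.43, 10.91, 10.53, 11.32 and 10.91 with hormone in control mice, with no overlap. The change was -0.98 on the log2 scale (SE 0.27, adjusted p = 0.00357), and with length and GC offsets it was -0.17 (adjusted p = 0.594). Acot2, the thioesterase, fell from 4.95, 5.86, 5.14, 5.41 and 5.13 to 4.28, 3.49, 3.14, 3.92 and 3.63. No hormone mouse reached the lowest of the others. The level was 3.03-fold lower, or -1.60 on the log2 scale (SE 0.28, adjusted p = 6.72e-05). This passed under every alternative tried. Acot1, whose transcript shares sequence with Acot2, was at -3.34 (adjusted p = 8.27e-05).

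Other measures moved with the hormone in control mice. The 10 myeloid markers summed to 112 to 274 CPM without and 551 to 1111 CPM with hormone, 6 of 10 being higher, and the brown adipocyte markers to 16410 to 47243 CPM without and 5848 to 10509 CPM with it, 6 of 10 being lower. Fibroblast or progenitor markers summed to 345 to 585 CPM without and 632 to 1526 CPM with hormone, 2 of 5 being higher, and of 6 endothelial markers 3 were higher and 1 lower, at 391 to 743 and 729 to 1018 CPM in sum. None of these lists was at 0 in these groups. A length slope was taken per mouse, of log2 CPM less the gene's mean over all mice on the log2 length of all annotated exons. The length slope was 0.45 higher with hormone and the mitochondrial share of counts was 7.21 percentage points lower (each exact permutation p = 0.00794, adjusted 0.0317 over 48 tests, with no overlap). Of the 7 calls, 6 remained with the myeloid score as a covariate. Under that covariate 4 of 10 members were positive and 6 negative, with a median of -0.43. In the main fit 1 was positive and 9 negative, with a median of -0.85. With length and GC offsets 4 of the 7, Cpt1a, Acadm, Hadhb and Acot2, kept theirs and Hadha gained one, and beyond the values of the alternatives given here the part of these measures was not tested.

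In Jag antibody mice the hormone changed 2 of 10 members, both lower, where 9.5% of all genes were called (5.21% lower). The groups overlapped for all 10 members, while 12% of all genes did not overlap. Acot2 in mice 6 to 10 was at 4.33, 5.34, 6.21, 4.99 and 5.30 log2 CPM without and 4.29, 4.22, 4.51, 4.13 and 4.13 with hormone. Only mouse 6 of the group without hormone, the mouse with the highest muscle score of that group (12.3), fell among the hormone mice. The log2 fold change was -1.10 (SE 0.28, adjusted p = 0.0109), and without mouse 8 at 7 d the adjusted p was 0.0602. Acadm was at 10.28, 11.22, 11.02, 11.62 and 10.86 without and 10.39, 10.33, 10.17, 10.28 and 10.36 with hormone, again overlapping through mouse 6. Its log2 fold change was -0.76 (SE 0.24, adjusted p = 0.0419), and leaving out any single mouse except mouse 6 at 7 d ended the call (highest adjusted p 0.160). Acadm was also not called without the low-count filter and by limma on the FPKM values, and Acot2 lost its call when length and GC offsets were used. With the myeloid score as a covariate neither passed (adjusted p = 0.0631 for Acot2 and 0.189 for Acadm). Myeloid markers summed to 143 to 618 CPM without and 433 to 1742 CPM with hormone in these mice, with 3 of 10 higher and none at 0. Of 10 brown adipocyte markers 2 were lower, at 7816 to 23509 CPM in sum without and 8118 to 11493 CPM with hormone, and 2 of 5 fibroblast or progenitor markers were higher, at 405 to 773 and 467 to 911 CPM. The length slope was 0.20 higher with hormone (exact permutation p = 0.00794, adjusted 0.0317, with no overlap).

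Cpt1a in Jag antibody mice was at 4.31, 3.04, 5.04, 2.58 and 3.97 log2 CPM without and 4.38, 5.37, 4.33, 4.70 and 4.28 with hormone. The mice without hormone spanned more than those with it, and the log2 fold change of 0.62 (SE 0.36, adjusted p = 0.263) did not pass. The difference of the hormone response between antibodies was tested for every gene as an interaction. None of the 10 members passed it (0.00586% of all genes did, 1 gene), and none passed an unadjusted p of 0.05 (12.3% of all genes). The largest was that of Cpt1a at -0.98 (SE 0.51, 95% interval -2.03 to 0.06, adjusted p = 0.423). The other 9 were positive, at 0.12 (Hadha) to 0.64 (Acaa2). A smaller response in Jag antibody mice is thus not shown for any member, and the intervals do not show equal responses either.

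Between 15 h and 7 d the oxidation genes rose in control mice. All 10 members passed, against 45.1% of all genes: 9 were higher (21.6% of all genes) and Cpt1a was lower (23.5%). For 8 members the groups did not overlap (25.6% of all genes). The members' median was 1.11 against -0.06 over all genes. These groups were collected at different times after injection, and time and collection cannot be told apart.

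Cpt2 rose most, from 8.60, 6.63, 7.56, 8.20 and 7.97 log2 CPM at 15 h to 9.57, 10.25, 9.96, 9.92 and 9.78 at 7 d. All 5 mice at 7 d lay above all 5 at 15 h. The level was 3.95-fold higher at 7 d, or 1.98 on the log2 scale (SE 0.25, adjusted p = 1.56e-06). It was 1.63 (adjusted p = 8.17e-05) without control mice 2 and 3 at 15 h. Cpt1a was at 3.43, 5.78, 5.08, 3.72 and 4.16 at 15 h, with mice 2 and 3 the highest, and the log2 fold change at 7 d was -1.17 (SE 0.37, adjusted p = 0.00988). Without those 2 mice it was -0.25 (adjusted p = 0.633), without mouse 2 alone the adjusted p was 0.119, and with the myeloid covariate it was 0.12. Cpt1b was at 9.69, 7.27, 8.69, 9.88 and 9.73 at 15 h, with mice 2 and 3 the lowest. Its log2 fold change was 0.77 (SE 0.30, adjusted p = 0.0331), which became 0.32 (adjusted p = 0.354) without mice 2 and 3 and -0.11 with the myeloid covariate. Its call was also lost without any 1 of mice 2 and 3 at 15 h and mice 2, 3 and 4 at 7 d. Length and GC offsets and the fit of only the groups compared ended the call of Cpt1b as well.

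Hadha, the alpha subunit, was at 10.45, 8.43, 9.57, 10.28 and 9.91 log2 CPM at 15 h in control mice and at 11.39, 11.85, 11.46, 11.35 and 11.42 at 7 d. No mouse at 7 d was as low as the highest at 15 h. The rise was 1.63 on the log2 scale (SE 0.27, adjusted p = 2.64e-05), and Hadha kept the call under the 12 alternatives tried, as did Cpt2, Acadl, Hadhb and Acot2. Hadhb rose by 1.18 (SE 0.25, adjusted p = 0.000363), and by 0.70 (adjusted p = 0.0187) when summed with Gm13910. Acot2 was at 4.35, 2.61, 2.91, 3.95 and 3.62 at 15 h and 4.95 to 5.86 at 7 d, a rise of 1.72 on the log2 scale (SE 0.29, adjusted p = 2.89e-05).

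Among the dehydrogenases Acadl rose by 1.23 (SE 0.23, adjusted p = 0.00011), from 9.66 to 11.20 at 15 h to 11.78 to 12.42 at 7 d. Acadm rose by 1.04 and Acadvl by 1.02, and the thiolase Acaa2 by 1.02, the groups being apart for each. With the myeloid covariate these 3 were not called, at 0.44 for Acadm, 0.44 for Acadvl and 0.53 for Acaa2. With length and GC offsets 7 of the 10 members kept the call. Acaa2 at 0.23 (adjusted p = 0.453) and Acadvl at 0.55 (adjusted p = 0.0903) lost it, beside Cpt1b. Without control mice 2 and 3 at 15 h 7 of the 10 members were called, Acaa2 (0.74, adjusted p = 0.0532) losing its call beside Cpt1a and Cpt1b. All 10 myeloid markers were lower at 7 d, at 299 to 6275 CPM in sum at 15 h and 112 to 274 CPM at 7 d, and none was at 0. Of 10 brown adipocyte markers 5 were higher at 7 d, at 2924 to 11660 CPM in sum at 15 h and 16410 to 47243 CPM at 7 d, and their mean log2 CPM was 1.71 higher (exact permutation p = 0.00794, adjusted 0.0317, with no overlap). The length slope was 0.40 lower at 7 d (exact permutation p = 0.00794, adjusted 0.0317).

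In Jag antibody mice 5 of 10 members rose over the same span, against 18.3% of all genes (10.4% higher): Cpt2, Hadha, Acot2, Acadl and Acadvl. The groups overlapped for all 10, against 16.8% of all genes that did not. Mouse 6 was the lowest Jag antibody mouse at 7 d for the 9 members other than Cpt1a. Cpt2 was at 8.78, 8.46, 8.67, 8.95 and 8.53 log2 CPM at 15 h and at 8.73, 9.92, 10.17, 9.75 and 9.69 at 7 d, where mouse 6 alone stayed within the earlier range. Its log2 fold change was 1.04 (SE 0.24, adjusted p = 0.00428), and Hadha was at 0.95 (SE 0.26, adjusted p = 0.0127). Both kept the call without any one mouse, while Acot2 at 0.86, Acadl at 0.77 and Acadvl at 0.73 lost it without 5, 3 and 8 of the 10 mice in turn. Without mouse 6 at 7 d 8 members were called, with Acadm, Hadhb and Acaa2 added. With length and GC offsets 2 of the 5, Acadl and Hadha, kept the call, Cpt2, Acot2 and Acadvl lost it and Hadhb gained one. With the myeloid covariate none of the 5 was called. At 7 d 3 of 10 myeloid markers and 5 of 6 lymphocyte markers were lower. The lymphocyte markers summed to 2.88 to 69.0 CPM at 15 h (median 3.18) and 2.15 to 5.12 CPM at 7 d (median 3.43). The median of the sum was thus not lower at 7 d. The mitochondrial share of counts was 8.29 percentage points lower at 7 d and the length slope 0.19 lower (each exact permutation p = 0.00794, adjusted 0.0317, with no overlap). Cpt1a changed by -0.17 (SE 0.36, adjusted p = 0.767) and Cpt1b by 0.46 (SE 0.29, adjusted p = 0.268), which did not pass. Whether control and Jag antibody mice differed in these time courses was not tested.

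**Figure D4:**
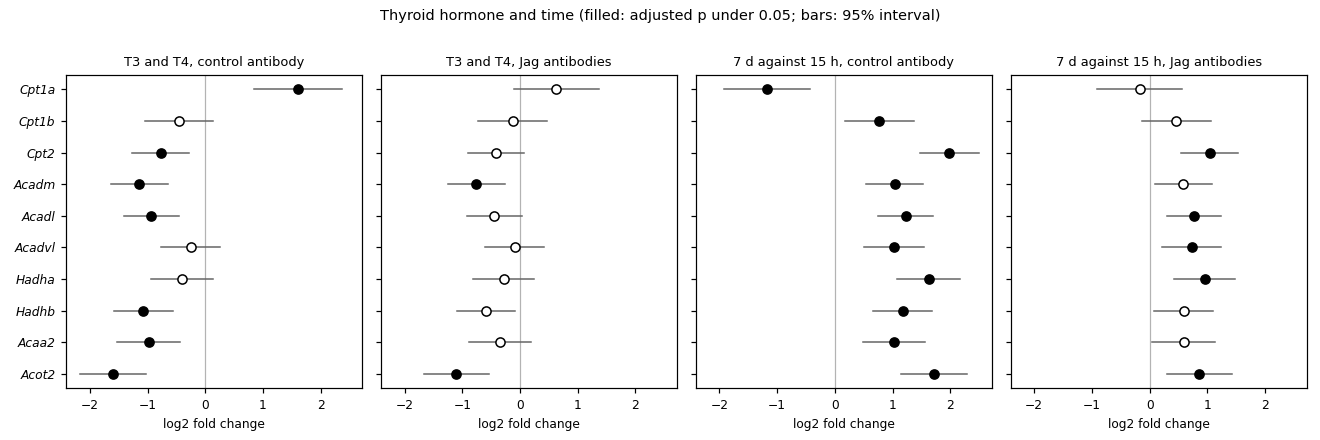
Log2 fold change of each gene with T3 and T4 (2 left panels) and at 7 d against 15 h (2 right panels), in control and Jag antibody mice. Circles are edgeR estimates with 95% intervals and filled circles mark an adjusted p under 0.05: 7, 2, 10 and 5 circles are filled from left to right, and Cpt1a lies opposite to the other 9 genes in each panel.

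The group means place the control mice at 7 d highest for Cpt2 (9.90 ± 0.25 log2 CPM), Acadl (12.00 ± 0.26), Acadvl (10.69 ± 0.24), Hadha (11.49 ± 0.20), Hadhb (8.22 ± 0.39), Acaa2 (12.00 ± 0.34) and Acot2 (5.30 ± 0.35, all SD, n = 5). For Cpt1a they were lowest, at 3.52 ± 0.30, and control mice given hormone were highest, at 5.12 ± 0.31. The control mice at 15 h were lowest for every member except Cpt1a and Acadm, for which control mice given hormone had the lowest mean, 9.78 ± 0.37. Of the 70 gaps between neighbouring group means over the 10 genes, 5 exceeded the SDs of both groups. The widest of these was the gap of 0.89 in Cpt2 between the 2 groups at 15 h, and the others were in Cpt1a, Acadl, Acaa2 and Acot2.

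Across the 40 mice, which share groups, depth and cell makeup, 9 members ran together. Pearson's r of each with the mean of the others was 0.83 (Acadm) to 0.96 (Acadl), and after removal of the group means 0.82 (Acot2) to 0.94 (Cpt2). Cpt1a ran against the rest at -0.59, and at -0.54 within groups. With the myeloid score, r over the 40 mice was -0.82 (Cpt1b) to -0.68 (Acadvl) for the 9 members and 0.66 for Cpt1a. The part of cell makeup in these correlations was not tested. The pair closest to each other was Cpt2 and Hadha at 0.96, and the pair farthest apart was Cpt1a and Acadm at -0.76. Of 8899 genes outside the lists, Pcca (r = 0.97), Foxred1, Atpaf2, Dvl2, Lonp2 and Ppif (0.94) were most like the mean of the members. Dvl2 overlaps Acadvl and shares part of its sequence.

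The other genes of the pathway were read from a list of 20: uptake, activation, the carnitine shuttle, short-chain and auxiliary enzymes, and electron transfer. None of the 20 was called between antibodies at any time. With hormone in control mice 13 were lower (22.9% of all genes) and 0 higher (20.3%), with a median of -1.07. The largest decreases were those of Ech1, an auxiliary enoyl-CoA isomerase (-1.64), Etfb, a subunit of the electron transfer flavoprotein (-1.62), Eci1, an enoyl-CoA isomerase (-1.61), and Acot13, a thioesterase (-1.44). In Jag antibody mice given hormone 2 of the 20 were called, near the share of all genes (9.5%). Ech1 was lower (-0.91) and Slc22a5, the carnitine transporter of the cell surface, higher (0.77). From 15 h to 7 d 15 of the 20 rose in control mice (21.6% of all genes) and 4 in Jag antibody mice (10.4%). Acsl5, a long-chain acyl-CoA synthetase, led in both (2.81 and 1.26).

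Genes that set malonyl-CoA, the inhibitor of carnitine palmitoyltransferase 1, were 5. Mlycd, which degrades malonyl-CoA, fell with hormone by 1.23 (adjusted p = 0.000199) in control and by 0.73 (adjusted p = 0.0487) in Jag antibody mice and rose with time in both. Acacb, the acetyl-CoA carboxylase at the mitochondrion, changed with time in both (1.47 and 0.95) and with hormone in neither. Acaca, the cytosolic carboxylase, rose with time in control mice by 2.56, the most of the 5. It was lower under the Jag antibodies at 5 d (-2.23, adjusted p = 0.0143), when no member was called and 9 of 10 were positive.

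Of 12 regulators of the pathway, 4 rose and 1 fell with hormone in control mice. These 5 of 12 are near the share of all genes called, 43.2% (20.3% higher, 22.9% lower). Ppara, a fatty acid sensing receptor, rose by 1.24 (adjusted p = 0.0162), Ncor1, a corepressor, by 1.10, Nrip1, another corepressor, by 0.96, and Ppard by 0.68. Esrra, the estrogen-related receptor alpha, fell by 1.19 (adjusted p = 0.00333). In Jag antibody mice given hormone Rxra, the partner of the PPAR receptors, was the 1 regulator called, and fell by 0.56 (adjusted p = 0.0322). There 9.5% of all genes were called. From 15 h to 7 d 2 rose and 3 fell in control mice, again near the share of all genes called, 45.1% (21.6% higher, 23.5% lower). Esrrb, a relative of Esrra, was at 2.03, Esrra at 1.46, Ppara at -1.25, Ncor1 at -1.10 and Nrip1 at -0.83. In Jag antibody mice 3 rose over that span, Esrrb (2.26), Esrra (1.29) and Ppard (0.77), where 10.4% of all genes rose. Between antibodies, Ppargc1a, the coactivator known as PGC-1 alpha, was higher at 5 d (1.11, adjusted p = 0.0489) and Rxra at 7 d (0.72, adjusted p = 0.0192). Each was the 1 regulator of 12 called, where 8.02% and 2.5% of all genes were called.

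In the thioesterase cluster, Acot4 (1.36, adjusted p = 0.0341) and Acot6 (0.67, adjusted p = 0.0399) were higher under the Jag antibodies at 5 d, while Acot2 did not pass. Acot1 fell with hormone in Jag antibody mice as well (-2.34) and rose with time in control (1.69) and Jag antibody mice (2.30). Of 10 peroxisomal oxidation genes, 2 were lower with hormone in control mice, Scp2 (-1.07) and Acot8 (-1.05), and 2 in Jag antibody mice, Abcd2 (-1.16) and Scp2 (-0.60). With time 7 rose in control mice, Acaa1b (1.77) and Acot8 (1.29) among them, and 2 in Jag antibody mice. Of 16 respiratory chain genes, 13 were lower with hormone in control mice (median -1.11) and 0 in Jag antibody mice. All 16 rose from 15 h to 7 d in control mice and 9 in Jag antibody mice. Of 10 fatty acid synthesis genes, 5 were lower under the Jag antibodies at 5 d (median -1.49), where the members' median was 0.38. With hormone 2 of these 10 were lower in control mice, and from 15 h to 7 d all 10 rose in control mice (median 2.31) and 3 in Jag antibody mice (median 1.21). Of all genes, 22.9% were lower with hormone in control and 5.21% in Jag antibody mice. From 15 h to 7 d 21.6% of all genes rose in control and 10.4% in Jag antibody mice, and 8.02% were called between antibodies at 5 d. The 2 of 10 peroxisomal and 2 of 10 synthesis genes lower with hormone in control mice are near the share of all genes. These counts describe the lists beside the members and no difference between lists was tested.

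**Figure D5:**
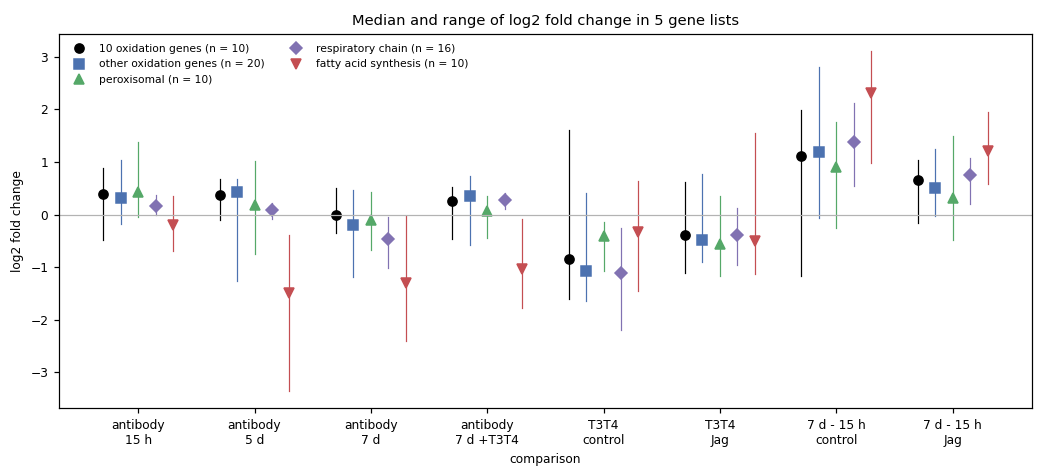
Median (symbol) and range (line) of the log2 fold change (vertical axis) in the 10 oxidation genes and in 4 other lists, for 8 comparisons (horizontal axis). All 5 lists have medians below 0 with hormone in both control and Jag antibody mice and above 0 at 7 d against 15 h in both, and the fatty acid synthesis genes alone have medians below -1 between antibodies at 5 d and later.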

How the data were processed

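RNA from brown adipose tissue was extracted with Trizol and columns and read as single-end 50 bp reads, per the labels' protocols. The submitters' processing notes name GSNAP and limma with no version or role. The aligner settings, genome build, counting program and use of strand are not given in the sources used here. The authors deposited raw counts for 52636 Ensembl genes and an FPKM table over the same genes and mice, and the FPKM values were used in 1 alternative only. Symbols were matched for 52403 genes. Exonic lengths, GC content and coordinates came from GENCODE M21 (GRCm38) and promoters from RefSeq (GRCm38.p6). The test was the quasi-likelihood F test of edgeR 4.0.16 (R 4.3.3) after filterByExpr and TMM scaling, fitted robustly as 1 model of 8 group means over 40 libraries. P-values were adjusted by Benjamini-Hochberg over 17079 genes, and an adjusted p under 0.05 is a call. Standard errors are those implied by the F statistic. Log2 CPM values have a prior count of 2. The members, lists and tests were chosen with earlier results of these data known. All 10 members are named in every comparison, from other lists up to 4 called genes per direction, by size, were open to being named, and genes of the malonyl-CoA, regulator and thioesterase lists could be named whether called or not. Results of 1 gene are not reported here. Alternatives used limma 3.58.1 on log2(FPKM + 1), DESeq2 1.42.0, RLE size factors, no low-count filter, only the groups compared, muscle score, length and GC offsets, replicate block, and leaving out each mouse. The myeloid covariate, the exclusion of 2 control mice at 15 h and the summing of Hadhb with Gm13910 were chosen after seeing the data. The test was run on simulated counts with known changes first.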

Additional observations from a re-analysis of the deposited data

Results flagged for a closer look

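In groups of 5, a mouse was singled out where its distance to the next mouse, divided by the group's range, exceeded 0.71. This held for 4 of 88 sets of values, and chance gives about 5% of sets. Acaa2 in Jag antibody mouse 6 at 7 d was low at 10.48 log2 CPM, the next mouse being at 11.72. That mouse was also the lowest of its group for the other members except Cpt1a and had its highest muscle score, 12.3. Acadvl and Hadha were high in control mouse 2 at 7 d, at 11.11 and 11.85, the next mice being at 10.67 and 11.46. Cpt1b was high in Jag antibody mouse 10 at 7 d with hormone, at 10.31, with the next mouse at 9.94.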

How the results depend on the processing

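Of 7 members called with hormone in control mice, 4 kept the call with length and GC offsets, with or without the replicate block, where Hadha gained one, 6 or 7 kept it under the other alternatives, and 7 without any one mouse. Of 10 called from 15 h to 7 d in control mice, 7 were called with length and GC offsets and 6 with these and the replicate block. With only the groups compared 9 were called, and 5 with the myeloid covariate. Without the 2 control mice of highest myeloid score at 15 h 7 were called, and 8 to 10 without any one mouse. With the myeloid covariate the change from 15 h to 7 d reversed to 0.12 for Cpt1a and -0.11 for Cpt1b, neither called. For hormone in Jag antibody mice, with 2 called, 1 was called with no low-count filter, with length and GC offsets, with these and the replicate block, and by limma on FPKM, 0 with the myeloid covariate, and 0 to 3 without one mouse. From 15 h to 7 d in Jag antibody mice, with 5 called, 3 were called with length and GC offsets, of which 2 were among the 5 and Hadhb was gained, 2 with these and the replicate block, Hadha and again Hadhb, 0 with the myeloid covariate, and 2 to 8 without one mouse. Between antibodies at 15 h, with 0 called, DESeq2 called 2, and 0 to 2 were called without one mouse. At 5 d, 7 d and 7 d with hormone, and for the interaction, 0 were called under all alternatives. The cause of these shifts was not tested. Log2 fold changes of members that were not called changed sign in 40 results under an alternative and in 21 when a mouse was left out. The Cpt1b to Cpt1a ratio with hormone in control mice was -2.06 with the replicate block, where the smallest possible p is 0.0625, and -2.22 to -1.93 without one mouse. Between antibodies it ran from 0.39 to 0.94 at 5 d and from 0.74 to 1.11 at 7 d with hormone without one mouse, and passed once in each, without control mouse 2 and without Jag antibody mouse 7. Same-numbered mice had correlated deviations of 0.098 to 0.185 on average over 4 pairs of groups. Single values ran from -0.34 to 0.73, which does not settle whether the numbers pair the mice. The replicate block gave 7 called members with hormone in control mice, 10 from 15 h to 7 d in control mice and 4 from 15 h to 7 d in Jag antibody mice. No paired analysis was possible because antibody groups share no numbers, for those comparisons only. Counting depth limits Cpt1a and Acot2 most, with at least 85 and 122 counts per library.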
